A study of Mus musculus with 12 samples.

Results

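This account covers 10 genes that mark the stem cells at the base of the intestinal crypt or that are induced there by Wnt signalling: Lgr5, Olfm4, Ascl2, Smoc2, Axin2, Rnf43, Znrf3, Sox9, Prom1 and Tnfrsf19. They were taken by symbol from a deposited table of 17112 genes, each was found once, and all 10 passed the filter on low values that left 14001 genes for testing. The RNA came from whole small intestine of 12 C57BL/6 mice, 1 library per mouse, in 6 groups of 2. The mice were labelled WT, HET or KO for Zip4 (gene symbol Slc39a4), whose product imports zinc at the apical membrane of enterocytes, and each genotype was fed zinc held in an organic complex by its amino or its hydroxy end. The diets of the WT and HET mice held 15 ppm zinc and those of the KO mice 40 ppm per the sample labels, whereas the description of the series gives 15 ppm for all groups, so on the sample labels the KO genotype and the zinc level cannot be told apart. The WT mice were 210 to 237 days old and the KO mice 198 to 240 days. The HET mice were 363 and 141 days old in the amino group and 338 and 143 days old in the hydroxy group. A library is named here by its group and a number, so that KO hydroxy 2 is the second KO mouse fed the hydroxy complex. The labels state neither how the allele was made nor whether the mice were littermates, and all groups share the strain. The design asks how the 2 forms of zinc compare in the gut of mice with and without the importer. The labels do not name the segment sampled.

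The intestinal epithelium is renewed from crypts, where Wnt ligands and R-spondins from the stroma and from Paneth cells keep a pool of dividing stem cells. Wnt signalling stabilises beta-catenin, which with TCF factors switches on target genes, and several of these targets feed back on the pathway. BMP signals, also largely stromal, oppose stem cell renewal and rise toward the villus.

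Libraries held 26 to 38.7 M reads as estimated from the steps between low values, and 3 reads corresponded to 0.0774 to 0.115 CPM (counts per 1 M reads), so each value of the 10 genes lay above this counting limit. Slc39a4 itself (mm10 chromosome 15, bases 76612383 to 76616852 on the minus strand) stood at 188 to 256 CPM in WT and at 42 to 91.6 CPM in KO. In the libraries labelled HET it stood at 117 and 249 CPM (amino 1 and 2) and at 145 and 267 CPM (hydroxy 1 and 2). The 2 younger HET mice, amino 2 and hydroxy 2, thus lay within or above the WT range, and the older 2 lay below it. Those older mice also had the highest levels of Egr1, an immediate-early gene, at 874 and 657 CPM against at most 50.8 CPM in any other library. Fabp6, a bile acid carrier of the ileum, stood at 259 CPM in WT hydroxy 1 and 99.3 CPM in HET amino 2 and at or below 0.836 CPM elsewhere. HET amino 2 also listed 1539 genes at 0, against 478 to 862 in the other libraries. The X inactivation transcript Xist was at 244 CPM in KO amino 1, labelled male, and at 0.155 CPM in KO amino 2, labelled female, and the Y-linked gene Ddx3y gave the opposite picture (0 and 32.2 CPM). Both belong to the same group, so this mismatch moves no library between groups. Outside KO amino 1, Xist was at most 0.877 CPM and Ddx3y lay between 24.99 and 44.25 CPM. By these genes KO amino 1 alone was female. Each comparison that includes the KO amino group thus holds a female on that side only. What part sex has in these comparisons was not tested. The Lgr5 difference between KO and HET is given with and without the libraries singled out here.

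Promoter sequences of 4 members, taken as stem cell markers or as Wnt targets, are shown and were searched for the motif that TCF factors bind. RefSeq (GRCm38.p6, the assembly also called mm10) listed 9 promoters for 6 of the 10 genes (all but Lgr5, Smoc2, Znrf3 and Sox9), each running from 250 bases before the start to 50 after it, written on the strand that the table gives for the gene. The end of the window was found in that orientation in the transcripts of the gene for all but the 2 promoters of Tnfrsf19, whose strand rests on the table alone. The searched motif was the TCF and LEF core in 4 spellings (CTTTGAA and CTTTGAT and CTTTGTA and CTTTGTT) on either strand, and capitals mark a match. The Axin2 promoter lies at chr11:108920099-108920398 (plus strand), that of Olfm4 at chr14:80000052-80000351 (plus), that of Ascl2 at chr7:142969215-142969514 (minus) and the second one of Tnfrsf19 at chr14:61037938-61038237 (minus).
Axin2: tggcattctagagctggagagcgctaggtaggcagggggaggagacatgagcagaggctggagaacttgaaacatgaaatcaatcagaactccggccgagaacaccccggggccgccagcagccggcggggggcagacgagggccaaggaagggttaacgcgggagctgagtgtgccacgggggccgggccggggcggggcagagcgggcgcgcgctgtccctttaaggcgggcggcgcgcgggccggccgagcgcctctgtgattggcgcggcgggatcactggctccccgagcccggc
Olfm4: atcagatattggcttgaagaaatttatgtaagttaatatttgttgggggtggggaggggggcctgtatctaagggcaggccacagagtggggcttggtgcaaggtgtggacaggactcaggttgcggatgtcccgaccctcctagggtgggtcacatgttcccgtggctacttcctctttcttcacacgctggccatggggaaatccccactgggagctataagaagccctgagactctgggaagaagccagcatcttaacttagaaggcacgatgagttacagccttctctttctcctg
Ascl2: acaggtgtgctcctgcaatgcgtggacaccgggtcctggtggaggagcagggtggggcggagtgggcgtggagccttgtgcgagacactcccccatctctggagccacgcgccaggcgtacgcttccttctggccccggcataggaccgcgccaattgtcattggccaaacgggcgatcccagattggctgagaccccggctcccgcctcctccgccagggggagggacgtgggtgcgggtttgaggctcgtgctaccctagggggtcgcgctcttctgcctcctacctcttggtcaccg
Tnfrsf19: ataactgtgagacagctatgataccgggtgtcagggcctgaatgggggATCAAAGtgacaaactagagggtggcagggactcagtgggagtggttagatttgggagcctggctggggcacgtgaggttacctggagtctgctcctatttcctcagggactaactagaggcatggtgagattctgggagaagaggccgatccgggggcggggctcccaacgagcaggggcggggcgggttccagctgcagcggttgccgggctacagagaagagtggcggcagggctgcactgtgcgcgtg
A match was found in 1 of the 9 promoters, the one of Tnfrsf19 shown, as ATCAAAG, the motif on the strand opposite to the one given, beginning 202 bases before the start. Of all 32851 promoters in that table, 16.9% held the motif, so the members' windows did not stand out, and no match says only that these letters are absent from this window. The other 5 promoters, of Prom1, Rnf43 and the first of Tnfrsf19, held none.

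The members spanned a wide range of levels. Compared per kb of the longest annotated transcript, over the 12 libraries, Olfm4 was highest at 204 ± 81.3 CPM per kb (SD, n = 12). It was followed by Smoc2 (16.5 ± 6.88), Prom1 (10.03 ± 2.62), Axin2 (9.96 ± 2.43), Rnf43 (4.99 ± 1.44) and Ascl2 (3.57 ± 1.96). Sox9 (2.78 ± 0.838), Lgr5 (1.86 ± 1.21), Tnfrsf19 (1.53 ± 0.732) and Znrf3 (1.02 ± 0.524) closed the order. Within a library, Prom1 exceeded Axin2 in 7 of 12 libraries and Lgr5 exceeded Tnfrsf19 in 6 of 12, so neither pair had a fixed order. Olfm4 exceeded Smoc2, Axin2 exceeded Rnf43 and Tnfrsf19 exceeded Znrf3 in 12 of 12. The order depended on the length used: per kb of all annotated exons, Axin2 (7.71) stood above Prom1 (5.71), Ascl2 (3.53) above Rnf43 (3.28) and Tnfrsf19 (1.31) above Lgr5 (0.868), and Smoc2 was at 9.42 CPM per kb. On raw CPM the variation between libraries was largest for Lgr5, whose highest value was 8.16 times its lowest (coefficient of variation 65.0%), and smallest for Axin2 (2.73 times, 24.4%).

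**Figure D1:**
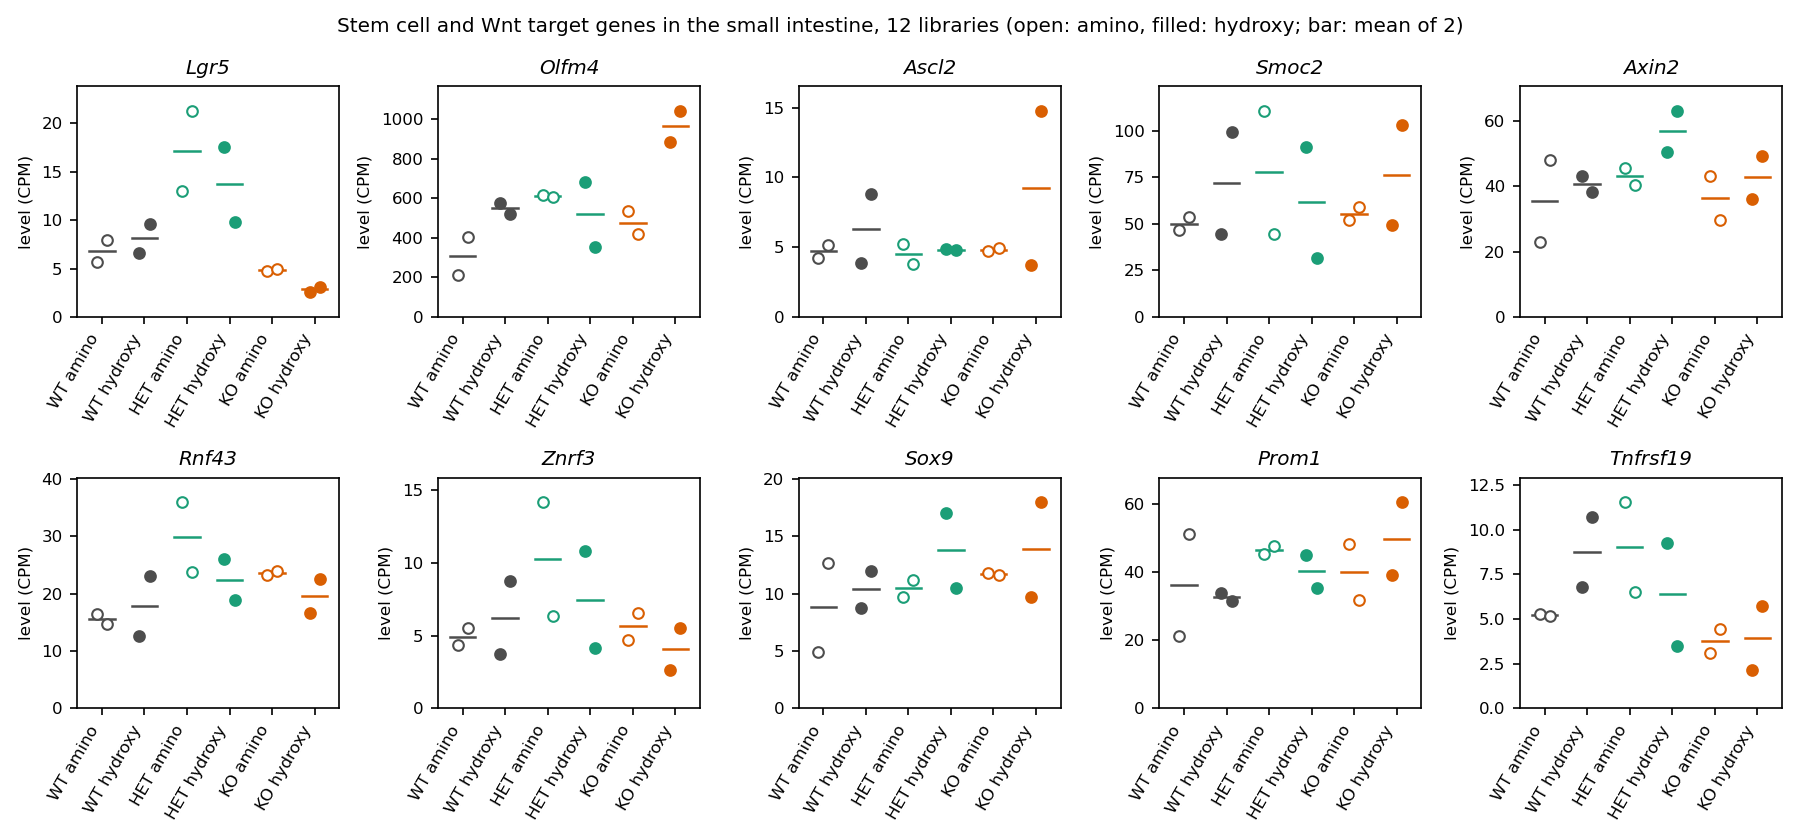
Level (CPM) of each of the 10 genes in the 12 libraries by group; each point is 1 mouse, open for the amino and filled for the hydroxy complex, and the bar is the mean of the 2 mice. Lgr5 is low in all 4 KO mice (2.61 to 4.93 CPM) and high in all 4 HET mice (9.82 to 21.3), while Olfm4 is highest in the 2 KO hydroxy mice (886 and 1042).

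Lgr5 separated the 3 genotypes, lowest in KO and highest in HET. It encodes the R-spondin receptor that marks crypt base columnar stem cells, and lies on chromosome 10 (115450314 to 115587780, minus strand, 137.5 kb). Its level was 5.69 and 7.93 CPM in WT amino, 6.56 and 9.64 in WT hydroxy, 13.0 and 21.3 in HET amino, 17.6 and 9.82 in HET hydroxy, 4.77 and 4.93 in KO amino and 2.61 and 3.12 in KO hydroxy. No KO mouse reached the lowest WT mouse and no WT mouse reached the lowest HET mouse, although the highest WT (9.64) and lowest HET (9.82) values nearly met. The means were 3.85 ± 1.17 CPM in KO, 7.46 ± 1.73 in WT and 15.4 ± 5.04 in HET (SD, n = 4 each). In bulk tissue, fewer cells of a type and less RNA per cell cannot be told apart.

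Against HET, Lgr5 fell in KO by 1.74 on the log2(CPM + 1) scale (SE 0.25, limma adjusted p = 0.0157), to 0.25 of the HET mean in CPM. It was the 1 member of 10 past the threshold of 0.05 in that comparison, in which 6.84% of all genes passed (481 higher and 476 lower in KO). That number of genes, 957, was 2 without the 2 Fabp6 libraries and 1 without HET hydroxy 1, and ranged up to 1396 (without HET amino 1) as single libraries were left out. Against WT, Lgr5 was lower in KO by a log2 difference of -0.81 (SE 0.25, adjusted p = 0.358), to 0.517 of the WT mean, and the difference did not pass. HET exceeded WT by 0.93 (SE 0.25, adjusted p = 0.207), 2.07 times in CPM, which did not pass either. Of all genes, 0.0286% passed in KO against WT (3 higher and 1 lower, or 10 and 1 with TMM scaling) and 0% in HET against WT. Slc39a4 itself did not pass in KO against WT (-1.71, SE 0.28, limma adjusted p = 0.0737), although its groups did not overlap. In KO against HET it passed (-1.40, SE 0.28, adjusted p = 0.0273). Before adjustment Lgr5 was under 0.05 in all 3, as were 9.79% of genes in KO against WT, 15.3% in HET against WT and 27.5% in KO against HET. Groups of 4 did not overlap for 5.49%, 9.66% and 13.3% of genes in those comparisons, and among the members for Lgr5 alone in each. The full order KO below WT below HET with no overlap held for 29 genes, or 0.207%, and the 3 comparisons share their groups. That order is the one seen in Lgr5, and genes that separate the 3 genotypes in another order were not counted. The share thus does not say how rare such a separation is.

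The Lgr5 difference between KO and HET kept its direction under 27 other settings (-1.93 to -1.18) and stayed past the threshold under 23. It lost the threshold without the 2 Fabp6 libraries (-1.57, adjusted p = 0.061), without HET hydroxy 1 (-1.54, 0.0648), without KO amino 1 (-1.73, 0.0632) and without KO amino 2 (-1.75, 0.0704). Without the younger HET mice it was -1.76 (adjusted p = 0.0182). In these settings the size stayed close to the full value while the adjusted p crossed the threshold; the smallest size of all 27 settings, -1.18, came with a pseudocount of 5.

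Genes of other cells moved with this comparison, as did transcript length. Of 10 fibroblast markers, 8 were below 0 in KO against HET (median -1.04 against -0.07 for all genes), and 4 of them passed the threshold: Col3a1 (-1.31), Col6a1 (-1.38), Pdgfra (-1.33) and Col1a1 (-1.32). Their summed level was 253 to 557 CPM in KO, 473 to 828 in WT and 601 to 1202 in HET, with no marker absent from the table. The 9 tested glia and neuron markers were all below 0 (median -0.55), and 0 passed, with Ret (-0.98) and Vip (-0.80) under an unadjusted p of 0.05. Of 8 immediate-early genes, which respond within minutes to stimuli and to handling of tissue, 7 were below 0 (median -1.30). Fosb fell (-2.62, adjusted p = 0.0293), and Nr4a1 (-3.09), Egr1 (-3.05), Fos (-1.76) and Jun (-0.67) had an unadjusted p under 0.05. Their summed level was 318 to 459 CPM in KO, 389 to 461 in WT and 324 to 2329 in HET. Without the older HET mice, which had the highest Egr1, the Lgr5 difference was -1.71 (adjusted p = 0.0263). With the mean fibroblast level as a covariate, the Lgr5 difference between KO and HET was -1.59 (limma adjusted p = 0.0114). The fibroblast level itself differed between these genotypes, as given above, so that fit cannot separate the 2. What part stromal content has in the Lgr5 difference was not tested. Among the 29 genes ordered like Lgr5 were Pdgfra, Col6a1 and Bmp4. Transcript length also went with the difference between KO and HET, over 5 classes of equal number from the shortest transcripts to the longest. The median difference of KO to HET went from 0.29 to -0.42. The share of genes below 0 went from 26.6% to 87.2%, and the share past the threshold and lower in KO from 0.325% to 11.3%. The trend was wider in HET against WT (medians -0.20 to 0.32) than in KO against WT (0.097 to -0.096). Lgr5, at 4793 bases, lies in class 4, whose median in KO against HET was -0.20. With the length trend taken off each library, its difference was -1.49 (adjusted p = 0.0212), and with length and GC content -1.57 (adjusted p = 0.0186).

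**Figure D2:**
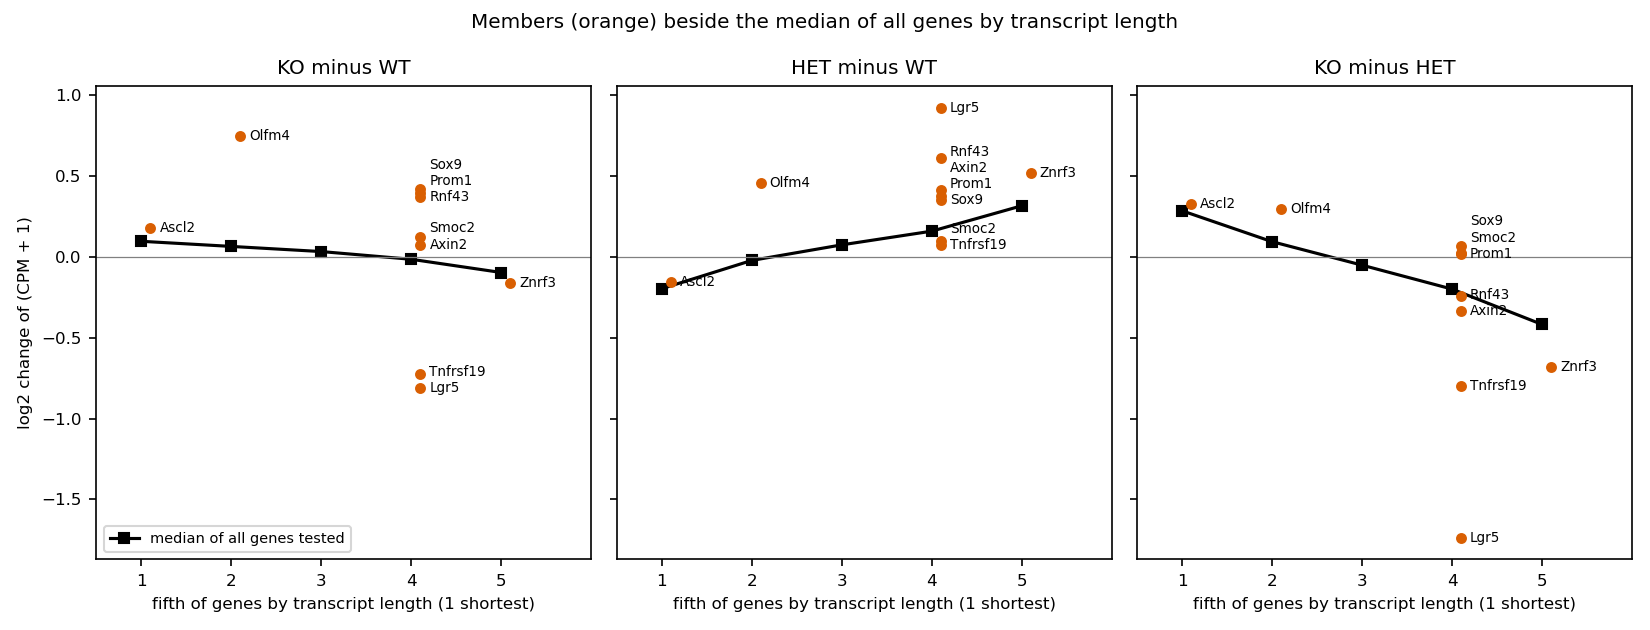
Log2 change of (CPM + 1) of the 10 genes (orange) and the median of all genes tested (black) against 5 classes of genes by length of the longest transcript, for 3 genotype comparisons. In KO minus HET the median falls from 0.29 to -0.42 along the classes, and Lgr5 at -1.74 lies far below the median of its class (-0.20).

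Olfm4 was most abundant in KO mice fed the hydroxy complex. It encodes a secreted glycoprotein made by crypt base cells (chromosome 14, 80000302 to 80023141, plus strand); as background, it is a stem cell marker in human intestine. It stood at 210 and 405 CPM in WT amino, 576 and 521 in WT hydroxy, 619 and 605 in HET amino, 684 and 354 in HET hydroxy, 533 and 418 in KO amino, and 886 and 1042 in KO hydroxy. The 2 KO hydroxy mice lay above the other 10, while the remaining 5 groups interleaved. This group was picked out after the levels were seen. How many of all genes set 1 group of 2 apart from the other 10 was not counted. Within KO the hydroxy complex gave a log2 difference of 1.03 (SE 0.37, unadjusted p = 0.0215, adjusted p = 0.304), or 2.03 times the amino mean. In WT the difference was 0.91 (SE 0.37, unadjusted p = 0.0363, adjusted p = 1), and in HET it was -0.31 (SE 0.37). Averaged over genotypes it was 0.54 (SE 0.22, adjusted p = 0.544), and KO exceeded WT by 0.75 (SE 0.26, adjusted p = 0.421). None of these passed. The difference of the complex effect between HET and WT was -1.22 (unadjusted p = 0.0443, adjusted p = 0.9998).

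Across the 6 comparisons that involve the zinc complex (in each genotype, averaged, and the difference of HET or KO from WT), limma called 0 of 10 members, and 0% of all genes passed in each of them. In KO hydroxy against KO amino, 1 member, Olfm4, had an unadjusted p under 0.05, as did 13.7% of all genes. With 2 mice a side, Lgr5, Olfm4 and Rnf43 did not overlap between the complexes in KO, as was so for 45.6% of all genes. The 20 proliferation markers were all above 0 in that comparison (median 0.94 against 0.07 for all genes), and 16 of them had an unadjusted p under 0.05. Their summed level was 593 and 400 CPM in KO amino and 682 and 1232 CPM in KO hydroxy, and Mki67, the general marker of cycling cells, stood at 77.3 and 44.6 against 67.2 and 127 CPM. What part this has in the Olfm4 difference was not tested.

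No relation between Lgr5 and Olfm4 was seen over the libraries. Within a library, Olfm4 exceeded Lgr5 on CPM by 36.8 to 87.8 times in WT, 28.4 to 47.7 times in HET, 84.8 and 112 times in KO amino, and 334 and 340 times in KO hydroxy. Over the 12 libraries their Pearson r was -0.13 (permutation p = 0.688) and Spearman rho -0.11 (p = 0.732), and -0.02 without the 2 libraries farthest in Lgr5. These ratios were looked at after the levels were seen and are given without a test.

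**Figure D3:**
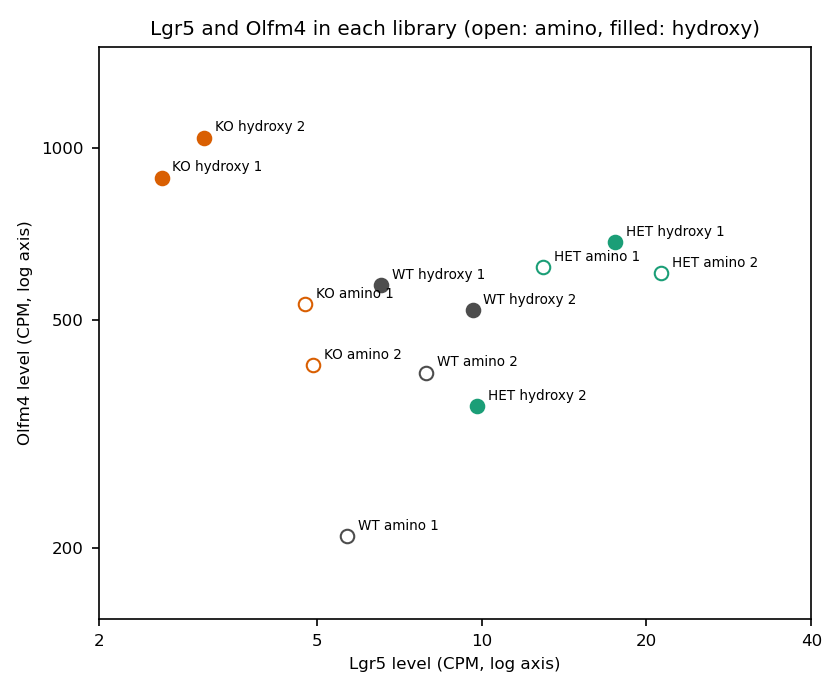
Level of Olfm4 against level of Lgr5 in each of the 12 libraries (CPM, both axes log), coloured by genotype, open for amino and filled for hydroxy. The 2 KO hydroxy libraries combine the lowest Lgr5 (2.61 and 3.12) with the highest Olfm4 (886 and 1042).

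The other markers of the crypt base did not separate the genotypes. Ascl2, a Wnt-induced transcription factor needed for the fate of Lgr5+ cells (chromosome 7), was at 4.24 and 5.19 CPM in WT amino, 3.84 and 8.79 in WT hydroxy, 5.22 and 3.803 in HET amino, 4.84 and 4.77 in HET hydroxy, 4.71 and 4.93 in KO amino, and 3.72 and 14.8 in KO hydroxy. KO hydroxy 2 alone lay above 8.79 CPM. The genotypes overlapped, and every interval of the difference between genotypes included 0 (KO minus HET -0.50 to 1.16, 95% interval). Smoc2, a matricellular protein enriched in Lgr5+ cells, was at 44.5 to 99.1 CPM in WT, at 111 and 91.1 in older HET animals, 44.7 and 31.9 in younger ones, and 49.5 to 103 in KO. Its HET values thus split by age within the genotype, as did Myh11, a smooth muscle myosin, at 2215 and 1918 CPM in the older and 410 and 337 CPM in the younger mice. Prom1, a membrane glycoprotein of crypt and other epithelial cells, ranged from 21.3 to 51.4 CPM in WT, 35.4 to 47.7 in HET and 31.8 to 60.6 in KO. Sox9, a transcription factor of crypt base and Paneth cells, ranged from 4.96 to 12.7, 9.75 to 17.1 and 9.75 to 17.98 CPM. For Smoc2, Prom1 and Sox9 all genotypes overlapped.

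Among the genes that feed back on Wnt signalling, Axin2, a scaffold of the beta-catenin destruction complex and a common Wnt reporter, stayed within 23.0 to 47.9 CPM in WT, 40.3 to 63.0 in HET and 29.5 to 49.2 in KO. Its 95% interval for KO minus WT was -0.44 to 0.60. Rnf43 and Znrf3 encode related ubiquitin ligases that remove Wnt receptors from the surface. Rnf43 was at 16.5 and 14.7 CPM in WT amino, 12.6 and 23.1 in WT hydroxy, 35.9 and 23.7 in HET amino, 26.1 and 18.8 in HET hydroxy, 23.3 and 23.9 in KO amino, and 16.7 and 22.6 in KO hydroxy. HET was higher than WT by 0.61 (SE 0.22, unadjusted p = 0.022, adjusted p = 0.263), with overlap. The older HET animals held the most Znrf3, 14.2 and 10.8 CPM, against 2.64 to 8.73 CPM in the other 10 libraries. Tnfrsf19, a member of the TNF receptor family known as Troy and as a marker of Lgr5+ cells, was at 5.28 and 5.19 CPM in WT amino, 6.79 and 10.7 in WT hydroxy, 11.5 and 6.53 in HET amino, 9.26 and 3.51 in HET hydroxy, 3.10 and 4.46 in KO amino, and 2.16 and 5.74 in KO hydroxy. It was lower in KO than in HET by a log2 difference of -0.80 (SE 0.35, unadjusted p = 0.0457, adjusted p = 0.172). With the fibroblast level as a covariate that difference was 0.01 (adjusted p = 0.986), with the smooth muscle level -0.60 (adjusted p = 0.0238), without the younger HET mice -1.28 (adjusted p = 0.0507) and without the older ones -0.32 (adjusted p = 0.626).

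**Figure D4:**
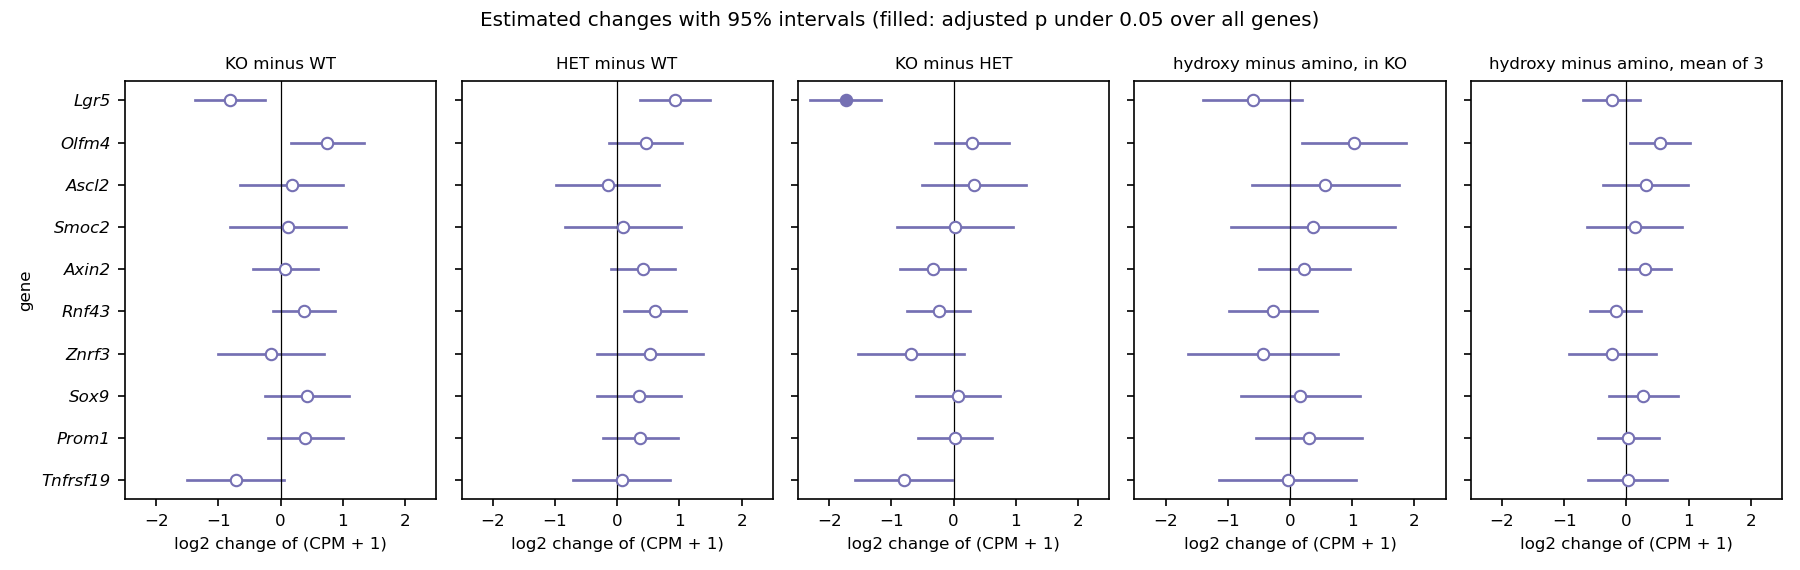
Estimated log2 change of (CPM + 1) of each gene with its 95% interval in 5 comparisons; a filled point has an adjusted p under 0.05 over all 14001 genes. The single filled point is Lgr5 in KO minus HET (-1.74); in the comparisons of the zinc complex the intervals of all members but Olfm4 include 0.

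Levels of the members were set beside those of stromal, muscle, cycling and enterocyte markers over the 12 libraries. Over the 12 libraries, Znrf3 rose with the fibroblast markers (Pearson r = 0.92, permutation p = 7e-05, adjusted p = 0.0035 over 50 relations of members with 5 marker lists; Spearman rho = 0.78, p = 0.0043, adjusted p = 0.063), and r was 0.89 without the 2 farthest libraries and 0.92 after removal of the genotype means. Tnfrsf19 gave r = 0.86 (permutation p = 0.00039, adjusted p = 0.00975; rho = 0.66, adjusted p = 0.118), with r 0.79 and 0.81 in the same checks. Lgr5 gave r = 0.69 (permutation p = 0.0118, adjusted p = 0.0492; rho = 0.64, adjusted p = 0.144), but 0.42 without the 2 farthest and 0.37 within genotypes, so its relation rests on those libraries and on the genotype differences. Smooth muscle markers, led by Myh11 at 209 to 2215 CPM over the libraries, went with Smoc2 (r = 0.82, rho = 0.74), Znrf3 (0.80, 0.77) and Tnfrsf19 (0.83, 0.75), each with an adjusted permutation p of 0.0134 for r and of 0.063 to 0.0659 for rho. Proliferation markers went with Olfm4 (r = 0.85, adjusted permutation p = 0.0134; rho = 0.85, adjusted p = 0.05) and Prom1 (r = 0.83, adjusted p = 0.0134; rho = 0.77, adjusted p = 0.063). Without the 2 farthest libraries, KO hydroxy 2 and WT amino 1, r was 0.70 and 0.69. Enterocyte markers ran against Olfm4, Smoc2, Sox9 and Prom1 (r -0.74 to -0.69). In all, 12 of the 50 relations passed by Pearson r, and 0 without the older HET mice or without each relation's 2 farthest libraries. By Spearman rho the smallest adjusted permutation p, that of Olfm4 with proliferation markers, lay at the threshold (0.05 as rounded), and the next was 0.063.

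**Figure D5:**
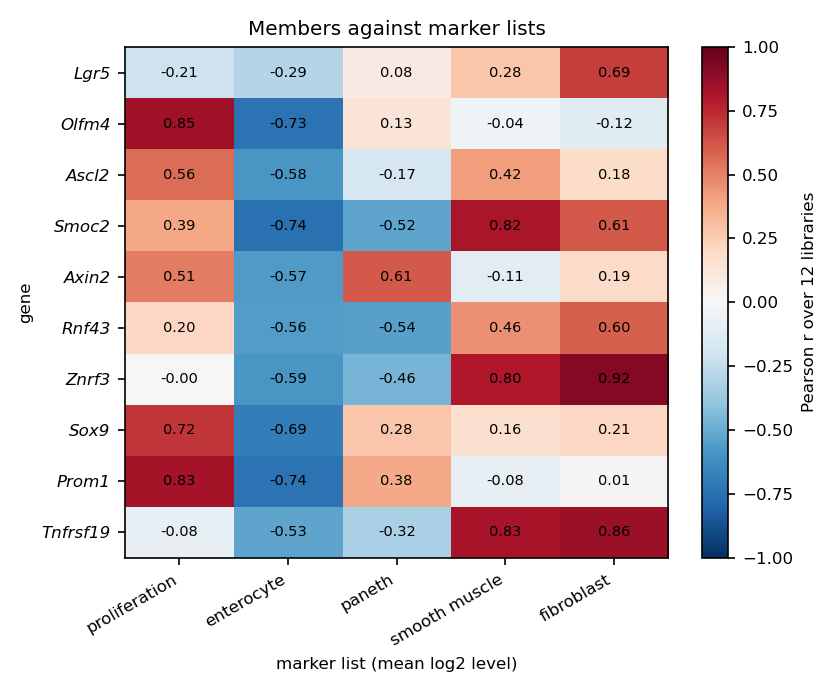
Pearson r over 12 libraries between each gene and the mean log2 level of 5 marker lists, from -1 (blue) to 1 (red). Znrf3 and Tnfrsf19 stand at 0.92 and 0.86 with fibroblast markers, and Olfm4 and Prom1 at 0.85 and 0.83 with proliferation markers.

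Of the 45 pairs of members, 43 had a positive r (median 0.35), and 2 passed after adjustment. These were Znrf3 with Tnfrsf19 (r = 0.84, adjusted permutation p = 0.0338; rho = 0.67, adjusted p = 0.218; r = 0.73 without the 2 farthest) and Rnf43 with Znrf3 (r = 0.81, adjusted p = 0.0344; rho = 0.79, adjusted p = 0.072; r = 0.67). Neither passed without the older HET mice or without the 2 farthest libraries. Among 10101 other genes with a mean of at least 5 CPM, the profiles most like that of Lgr5 over the 12 libraries were Ski (r = 0.96), Dpp8 (0.96), Slc29a3 (0.96), Phactr2 (0.96) and Hipk1 (0.95). Those most like Olfm4 were Nsa2 (0.96), Haus3 (0.95), Mecom (0.93), Rps2 (0.93) and Paip1 (0.92). Those most like Ascl2 were Arl6ip6 (0.91), Mospd3 (0.91), Slc7a4 (0.89), Ncbp2 (0.89) and Rhbdd3 (0.89). These are descriptions over libraries that share tissue composition.

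Other stem cell, Wnt, BMP and Notch genes passed between KO and HET about as often as genes at large. Of 105 tested, 10 passed (9.52%, against 6.84% of all genes) and 28.6% had an unadjusted p under 0.05 (against 27.5%), so the counts per list, mostly of 1 gene, are given as a description. Without the Fabp6 libraries, 2 of all genes passed. In KO against HET 43.8% of all genes were above 0. The share below 0 went from 26.6% in the shortest to 87.2% in the longest class of transcripts. What part transcript length has in the directions of the lists below was not tested. Of 11 tested Wnt ligand, R-spondin and secretion genes, all were below 0 (median -0.44 against -0.07 for all genes) and 3 fell, 0 rose: Wnt2b (-1.62, SE 0.32, adjusted p = 0.0271), Wnt4 (-1.32, SE 0.30, 0.037) and Wnt5a (-1.32, SE 0.31, 0.0391), all known as stromal ligands in the gut. Of 13 receptors all were below 0 (median -0.43) and 1 fell, the co-receptor Lrp6 (-0.89, SE 0.19, 0.0317), and the nearest others were Fzd4 (-0.85, adjusted p = 0.107) and Fzd5 (-0.53, adjusted p = 0.108). In the destruction complex and nuclear list, Gsk3a, a kinase of that complex, was the 1 gene of 18 that rose (0.61, SE 0.12, 0.0286), and 0 fell. Of 15 BMP genes 3 fell: the ligands Bmp5 (-1.55, SE 0.28, 0.0234) and Bmp4 (-1.32, SE 0.24, 0.0239) and the receptor Bmpr2 (-0.70, SE 0.17, 0.0442). Of 9 Notch genes, Notch1 fell (-1.09, SE 0.28, 0.0492), and Notch2 was at -1.25 (adjusted p = 0.0544). Of 20 further stem cell genes, Hopx, associated with slow-cycling crypt cells, rose (1.3, SE 0.32, 0.0466) and 0 fell. None of 13 other Wnt targets and 6 secreted inhibitors passed in limma, and 2 of each had an unadjusted p under 0.05 (Apcdd1 at -1.02 and Sp5 at 0.79, Kremen1 at -0.55 and Frzb at -0.74). Of 20 proliferation markers 1 rose, Pcna (0.73, adjusted p = 0.0456).

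In KO against WT, limma called 0 genes of the stem cell, Wnt, BMP and Notch lists. Besides the members Lgr5 and Olfm4, unadjusted p was under 0.05 for 8 of 105 genes (7.62%, against 9.79% of all genes). These were Wnt5a (-0.84), Gsk3a (0.40), Aqp4 (0.85), Hopx (0.90), Ephb2 (0.60), Smad1 (0.46), Bmp4 (-0.61) and Dll4 (-0.44), with adjusted p from 0.346 to 0.477. All 11 Wnt ligand and secretion genes were below 0 there too (median -0.30, against 0.02 for all genes, of which 52.45% were above 0). So were all 12 smooth muscle markers (median -0.78) and all 10 fibroblast markers (median -0.54), of which 0 passed, and the 20 proliferation markers were all above 0 (median 0.60). Comparisons of KO with WT and with HET share the KO mice. For hydroxy against amino in KO the smallest p among those lists belonged to Clu, linked to regenerating crypt cells (1.63, unadjusted p = 0.00226, adjusted p = 0.3), and 0 genes passed. Averaged over the genotypes 0 passed, and the smallest p in the stem cell, Wnt, BMP and Notch lists was that of Axin1 (0.22, unadjusted p = 0.0302, adjusted p = 0.544).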

How the data were processed

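RNA-seq of whole small intestine was deposited by the authors as 1 table of CPM values (counts per 1 M reads) for 17112 genes and 12 libraries, with 0.0001 added to each value, which was taken off. Partek, TopHat2 and mm10 are named in the submitters' processing notes. No source used here gives the counting tool, annotation, strand setting or filters, so reads shared with overlapping genes are uncertain. Depth was estimated from the steps between low values. Between 93.5% and 95.1% of low values lay within 0.05 of a whole read, too few to rebuild counts, so no count model was run. The listed genes held 62.0% to 71.8% of each library.

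The filter kept 14001 genes, those reaching 1 CPM in 2 or more libraries. Values were taken as log2(CPM + 1), which understates changes of low genes, and fitted with 6 group means in limma 3.58.1 (R 4.3.3, eBayes with trend, two-sided, 6 residual and 3.61 prior degrees of freedom). Genotype contrasts average the 2 complexes. Benjamini-Hochberg adjustment ran over all 14001 genes within each of 9 comparisons. Correlations used 100000 permutations, two-sided. The labels name no cultures, litters or batches, so p-values rest on the spread between mice within groups, moderated over all genes. In the 2 HET groups that spread includes the age difference between the 2 mice. Transcript lengths came from GENCODE M21 (98.3% of genes matched), promoters from RefSeq, and coordinates from the table. The members, lists and tests were chosen with earlier results of these data known. Text names the 10 members, list genes past the threshold or among the 3 smallest p of a list, and the 5 most similar profiles. Alternatives changed the pseudocount, filter, scaling, weights, covariates and libraries.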

Additional observations from a re-analysis of the deposited data

Results flagged for a closer look

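Of 30 sets of 4 mice (10 genes in 3 genotypes), 2 held a mouse far from the other 3, and chance flags about 1 in 20 such sets. Ascl2 in KO hydroxy 2 was at 14.8 CPM against 3.72 to 4.93 CPM in the other KO mice, a gap of 0.891 of the range. That library also had the highest summed proliferation markers (1232 CPM) and the highest Olfm4, Sox9 and Prom1. Smoc2 in WT hydroxy 2 was at 99.1 CPM against 44.5 to 53.7 CPM in the other WT mice, a gap of 0.832 of the range; its Myh11 level was 1957 CPM, against 436 to 888 CPM in the other WT mice. The part of proliferation in the Ascl2 value was not tested, and the relation of Smoc2 to smooth muscle markers over all libraries is given above.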

How the results depend on the processing

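No paired analysis was possible because the labels carry no replicate numbers. The 10 log2 changes of members with an unadjusted limma p under 0.05 in the main fit were followed under 27 settings, 270 values in all. Of these, 262 kept direction and side of the threshold, and 1 changed sign: Tnfrsf19 in KO against HET, at 0.0068 with the fibroblast score. These 10 were picked as the strongest in the same data. Outside them, sign changes ranged from 0 settings (Axin2 in HET against WT) to 12 of 27 (Tnfrsf19 for the complex averaged over genotypes). Calls among members in KO against HET (1 gene) became 2 with the smooth muscle score, 2 with the fibroblast score and 0 without the Fabp6 libraries, and were 0 to 1 with single libraries left out. HET against WT gave 3 with the smooth muscle score (Lgr5, Rnf43 and Znrf3). With the fibroblast score KO against WT gave 1 and hydroxy against amino in KO gave 1, in both cases Smoc2. Over all genes, KO against HET (957 calls) gave 1651 with quantile and 1449 with TMM scaling, 280 with library weights, 1646 with age, 3545 with the muscle score and 2663 with the fibroblast score. It gave 451 without the older and 1700 without the younger HET mice, 2 without the Fabp6 libraries, 495 with the length correction and 461 with length and GC. KO against WT (4 calls) gave 1 at a pseudocount of 0.25, under a filter on the mean (5 CPM) and without the Fabp6 libraries, 10 at a pseudocount of 5, 23 with quantile scaling and with age, 11 with TMM and with each length correction, 32 with weights, 283 with the muscle score and 280 with the fibroblast score. HET against WT (0 calls) gave 1 with no filter, with weights and without the older HET mice, 3 with age, 24 without the younger HET mice, 1093 with the muscle score and 494 with the fibroblast score. Hydroxy against amino in KO (0 calls) gave 2 with no filter, 5 with the muscle score and 541 with the fibroblast score. The difference of the complex effect between KO and WT (0 calls) gave 1 with no filter and 1 with the fibroblast score. With single libraries left out, calls ranged over 1 to 1396 in KO against HET, 1 to 14 in KO against WT, 0 to 109 in HET against WT, 0 to 4 for the complex in KO, 0 to 6 in HET and 0 to 2 averaged, and 0 to 2 for its difference between KO and WT. Correlations past the threshold, 2 of 45 pairs and 12 of 50 relations, were 0 and 0 without the older HET mice and without the 2 farthest libraries. The causes were not tested. The length corrections, the fibroblast score and the setting without the younger HET mice were chosen after seeing the data. A lone library left in a group was assumed to vary like the others, and 2 mice a group limit the precision.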
